A study of Macaca radiata with 6 samples.

Results

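FDFT1, TM7SF2 and STARD4 are genes of cholesterol supply, and they were followed across 6 Affymetrix Rhesus arrays of the corpus luteum, the progesterone-making gland that forms in the ovary from the ruptured follicle. They were selected from a cholesterol synthesis and uptake list on their p-values. Those came from the same comparison of prostaglandin F2alpha (PGF2alpha) with vehicle that is described here. Their difference between the groups is therefore a description and carries no test. All probe sets whose single annotated symbol was one of the 3 names were taken, which gave 3 of 14133 genes with a symbol of their own and 7 of the 52865 probe sets on the array, with 2 for FDFT1, 3 for TM7SF2 and 2 for STARD4.

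The PGF2alpha group held 3 arrays of corpora lutea from female bonnet monkeys (Macaca radiata) given 3 intramuscular injections of PGF2alpha at 59 µg/kg on day 10 of the luteal phase. The vehicle group held 3 arrays from female monkeys given phosphate-buffered saline (PBS) on the same day. The tissue was taken 24 h after treatment in both groups. The labels give 3 monkeys per group, number the arrays 1 to 3 and 4 to 6 and do not link an array to an animal. The p-values given below therefore reflect how far these samples differ among themselves, which may be technical. Age is not given in the sources used here, and the labels name no other agent in either group. The probes were designed for the rhesus macaque, another species, so a mismatch would lower the reading of a probe set in both groups.

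Animal cells build cholesterol from acetyl-CoA through mevalonate and farnesyl diphosphate. FDFT1, squalene synthase, joins farnesyl diphosphate into squalene and so commits it to sterols, away from protein prenylation, dolichol and ubiquinone. TM7SF2 reduces the C14 double bond of sterol intermediates after the C14 demethylation by CYP51A1, a reaction that LBR also carries out, and STARD4 is a soluble START domain protein that moves cholesterol between membranes. Transcription of many genes of the route is driven by SREBF2, whose protein is escorted from the endoplasmic reticulum by SCAP and held there by INSIG proteins when sterols are plentiful. In the corpus luteum cholesterol is the starting material of progesterone, and it comes from circulating lipoproteins and from synthesis in the cell.

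The deposited values are linear Microarray Suite 5.0 (MAS5) signals, and all values below are such signals unless they are called log2 fold changes. A log2 fold change is the mean of log2(signal + 40) over the PGF2alpha arrays minus that over the vehicle arrays. A probe set was tested if it reached the median of its array on at least 3 of the 6 arrays. The median signal was 114.9 to 125.8 on PGF2alpha arrays and 122.1 to 134.0 on vehicle arrays. The ratio of 3-prime to 5-prime beta-actin control signals, a sign of RNA quality, was 1.73 to 1.78 on PGF2alpha arrays and 1.49 to 2.25 on vehicle arrays, where vehicle replicate 5 had the highest value. The scanner files give hybridisation times and name no run, so arrays with close times were grouped here as a hybridisation run. This placed PGF2alpha replicate 2 and vehicle replicate 4 in a second hybridisation run. STAR, which defines steroid-making cells, read 33832 to 50313 on PGF2alpha arrays and 58817 to 71945 on vehicle arrays, far above the array medians on every array.

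All 3 genes read lower in PGF2alpha corpora lutea. On the brightest probe set of each gene, the PGF2alpha mean was 56.3% of the vehicle mean for FDFT1, 41.2% for TM7SF2 and 61.4% for STARD4. In 6 of the 6 tested probe sets of these genes every PGF2alpha array lay below every vehicle array, as it did in 13.7% of all tested probe sets. That count follows from how the genes were chosen and carries no weight of its own.

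**Figure D1:**
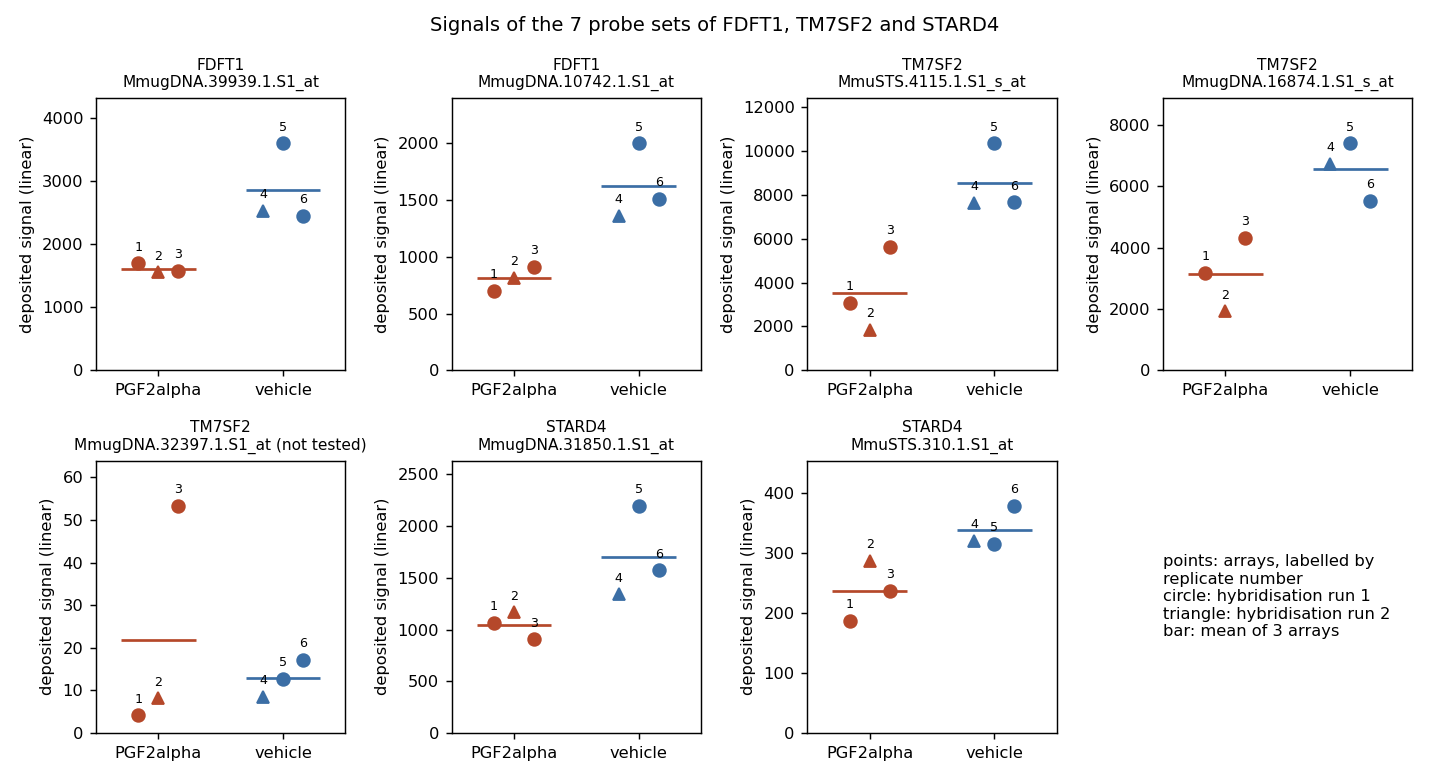
Deposited MAS5 signal (linear axis from 0) of the 7 probe sets of FDFT1, TM7SF2 and STARD4 on each array, PGF2alpha at left and vehicle at right, with the replicate number beside each point, the mean of 3 arrays as a bar, and triangles for hybridisation run 2. FDFT1 stayed within 1558 to 1697 on the PGF2alpha arrays of its brighter probe set, while TM7SF2 spread over 1842 to 5647.

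FDFT1 was even across the treated arrays on its brighter probe set. That probe set, MmugDNA.39939.1.S1_at, read 1697, 1558 and 1584 in PGF2alpha replicates 1 to 3, against 2533, 3605 and 2457 in vehicle replicates 4 to 6. The 3 treated arrays lay within a factor of 1.09 of each other, whereas vehicle replicate 5 stood above its fellows and stretched the vehicle range to a factor of 1.47. The group means were 1613 ± 73.6 for PGF2alpha and 2865 ± 642 for vehicle (SD, n = 3 each), a log2 fold change of -0.79. The highest PGF2alpha array reached 69.0% of the lowest vehicle array.

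The other FDFT1 probe set, MmugDNA.10742.1.S1_at, was also lower after PGF2alpha, with treated arrays that spread by a factor of 1.3. It read 701, 814 and 913 in PGF2alpha replicates 1 to 3, against 1364, 2001 and 1513 in vehicle replicates 4 to 6. Its log2 fold change was -0.96, and vehicle replicate 5 was again the highest array. Within hybridisation run 1 the log2 fold changes of the brighter and dimmer probe sets were -0.84 and -1.08. Within run 2, which held 1 array of each group, they were -0.69 and -0.72. The groups did not overlap on either FDFT1 probe set, so the direction within each run was fixed beforehand. Without vehicle replicate 5 the log2 fold change of the brighter probe set was -0.62.

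On the brightest probe sets TM7SF2 showed the largest difference of the 3 genes, although the mean over all its probe sets was -0.79 against -0.88 for FDFT1. That TM7SF2 mean includes a dim, untested probe set at 0.15, while the tested TM7SF2 probe sets stood at -1.40 and -1.12. Its brightest probe set, MmuSTS.4115.1.S1_s_at, read 3078, 1842 and 5647 in PGF2alpha replicates 1 to 3, against 7643, 10363 and 7672 in vehicle replicates 4 to 6. PGF2alpha replicate 2 was the lowest and PGF2alpha replicate 3 lay closest to the vehicle arrays, with a factor of 3.07 between them. The means were 3522 ± 1941 for PGF2alpha and 8559 ± 1562 for vehicle (SD, n = 3 each), a log2 fold change of -1.40.

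The next TM7SF2 probe set, MmugDNA.16874.1.S1_s_at, kept the order of the treated arrays. It read 3177, 1923 and 4322 in PGF2alpha replicates 1 to 3, against 6737, 7402 and 5524 in vehicle replicates 4 to 6, with a log2 fold change of -1.12. Relative to the vehicle mean, the brightest probe set stood at -1.45, -2.18 and -0.58 on the log2 scale in PGF2alpha replicates 1 to 3. The size of the TM7SF2 difference therefore depended on the array. It was -1.81 without PGF2alpha replicate 3 and -1.01 without PGF2alpha replicate 2, and it was -1.09 within run 1 and -2.03 within run 2, where each group had 1 array.

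The third TM7SF2 probe set, MmugDNA.32397.1.S1_at, was too dim to be tested. It lay below the array median on every array, at 4.15, 8.11 and 53.3 in PGF2alpha replicates 1 to 3 and at 8.5, 12.7 and 17.2 in vehicle replicates 4 to 6. The groups overlapped, so this probe set neither adds to nor takes from the reading of the brighter probe sets. The brighter TM7SF2 probe sets carry the suffix _s_at, which marks probes shared by several transcripts, and no tested probe set of another kind was named for TM7SF2.

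STARD4 lay lower by a smaller amount in the second hybridisation run than in the first. Its brighter probe set, MmugDNA.31850.1.S1_at, read 1065, 1165 and 906 in PGF2alpha replicates 1 to 3, against 1340, 2195 and 1572 in vehicle replicates 4 to 6. The groups did not overlap, but the highest treated array reached 87.0% of the lowest vehicle array. The means were 1045 ± 131 for PGF2alpha and 1702 ± 442 for vehicle (SD, n = 3 each), a log2 fold change of -0.66. It was -0.89 within run 1 and -0.19 within run 2, and -0.47 without vehicle replicate 5.

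The dimmer STARD4 probe set, MmuSTS.310.1.S1_at, read 187, 287 and 237 in PGF2alpha replicates 1 to 3, against 320, 315 and 378 in vehicle replicates 4 to 6. Its log2 fold change was -0.46, with -0.62 within run 1 and -0.14 within run 2. Vehicle replicate 5, the highest array for the brighter STARD4 probe set, was the lowest vehicle array for this one. Deviations from the group means on the STARD4 probe sets were unrelated over the 6 arrays (r = 0.02), compared with r = 0.96 between the bright TM7SF2 probe sets and r = 0.69 between those of FDFT1, each as a description of probe sets that share arrays.

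Among the other enzymes of sterol synthesis, none passed the test. The 2 arms of the pathway that were listed here, from acetyl-CoA to farnesyl diphosphate and from squalene to cholesterol, held 19 genes besides FDFT1 and TM7SF2. The annotation named 12 of them, and all 12 were tested. In limma at an adjusted p of 0.05, 0 of 12 were called, against 6.13% of all tested genes (2.32% lower and 3.81% higher). At an unadjusted p under 0.05 there were 2, CYP51A1 and EBP, and both were lower. Of the 12 genes 9 had a negative log2 fold change, and the median of the 12 was -0.23. Over all 9980 tested genes 51.9% were negative and the median was -0.02. The median of the sterol genes depended on the probe sets used. It was -0.02 without those ending in _x_at or _s_at and -0.14 with the mean over the probe sets of a gene.

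In the mevalonate arm the changes were small. The log2 fold change was -0.41 for MVK, mevalonate kinase (adjusted p = 0.264), -0.24 for IDI1, the isopentenyl diphosphate isomerase (adjusted p = 0.508), and -0.22 for PMVK, phosphomevalonate kinase (adjusted p = 0.511). The other IDI1 probe sets stood at 0.27 and -0.24, so they disagreed in sign. MVD, which decarboxylates mevalonate diphosphate, stood at 0.18. FDPS, which makes the farnesyl diphosphate that FDFT1 uses, read 1918, 1635 and 2286 in PGF2alpha replicates 1 to 3, against 2049, 1909 and 1925 in vehicle replicates 4 to 6. The groups overlapped, with a log2 fold change of -0.02 and a 95% interval of -0.38 to 0.33 (adjusted p = 0.954).

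Past squalene 5 of 7 tested genes had a negative log2 fold change and 0 were called. CYP51A1, the lanosterol C14 demethylase that acts just before TM7SF2, read 1008, 1124 and 831 in PGF2alpha replicates 1 to 3, against 1518, 2252 and 1466 in vehicle replicates 4 to 6. All treated arrays lay below all vehicle arrays, and the log2 fold change of -0.78 missed the threshold (adjusted p = 0.0588), while its other probe set stood at -0.28. The sterol isomerase EBP stood at -0.52 on the same scale (adjusted p = 0.151) and NSDHL, which removes the C4 methyl groups together with other enzymes, at -0.29 (adjusted p = 0.379). DHCR7, the last reductase of one route to cholesterol, stood at -0.39 (adjusted p = 0.461), and the groups overlapped for NSDHL and DHCR7. The epoxidase SQLE and the ketoreductase HSD17B7 stood at 0.02 and 0.04. Further probe sets stood at -0.43 for EBP, -0.53 for NSDHL, 0.23 for SQLE, and -0.12 and 0.04 for HSD17B7.

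LBR, the lamin B receptor, which shares the C14 reductase reaction with TM7SF2, did not pass the test. It read 2077, 2085 and 1886 in PGF2alpha replicates 1 to 3, against 2135, 2194 and 1803 in vehicle replicates 4 to 6, so the groups overlapped. Its log2 fold change was -0.02 with a 95% interval of -0.34 to 0.31 (adjusted p = 0.967), and the sign turned to 0.03 when arrays were scaled to one median. The gap between LBR and TM7SF2 was not itself tested, because TM7SF2 was chosen for its value.

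**Figure D2:**
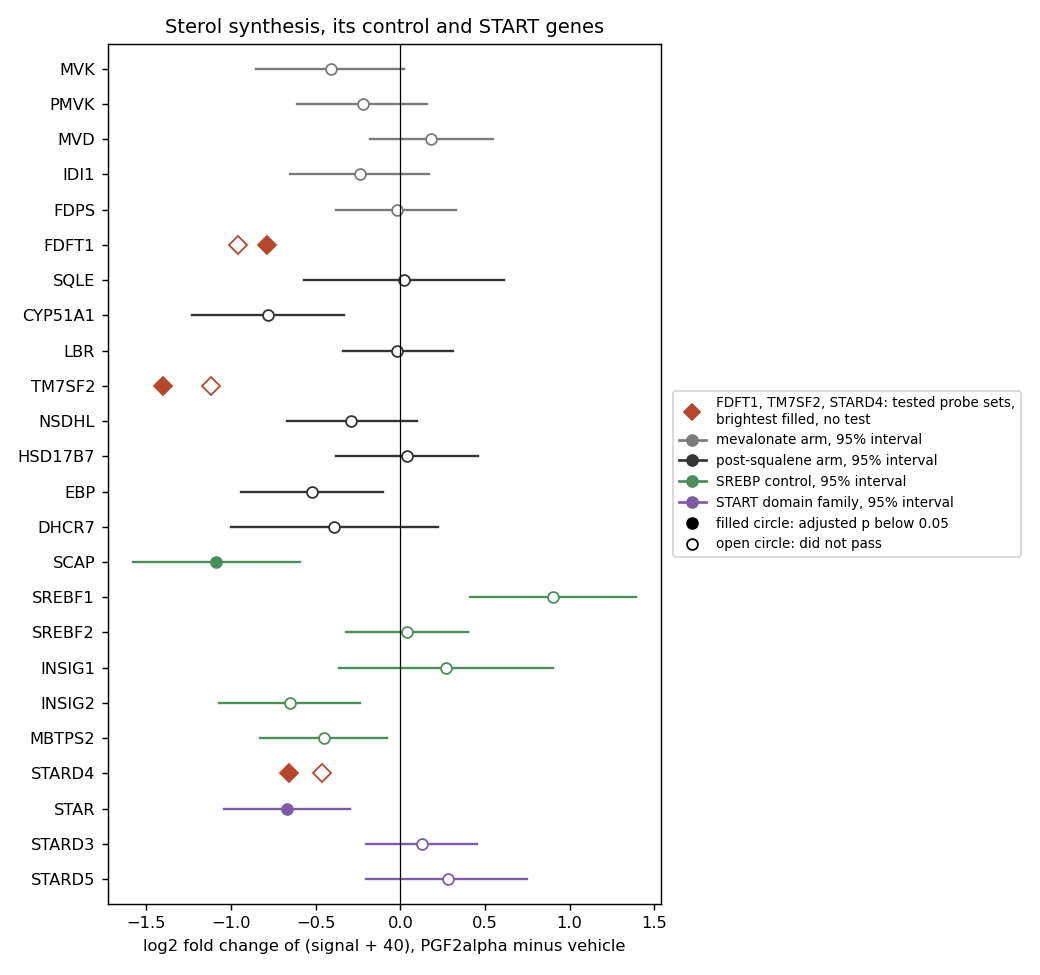
Log2 fold change of (signal + 40), PGF2alpha minus vehicle, for genes in pathway order, with 95% intervals from limma for the genes that were tested and diamonds without interval for FDFT1, TM7SF2 and STARD4 (brightest probe set filled). The diamonds lie between -1.40 and -0.46, FDPS and LBR lie at -0.02, and among the circles only SCAP and STAR are filled, having passed the test.

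Of the genes that control the SREBP factors, SCAP fell. SCAP, the escort protein that carries the SREBP precursors to the Golgi, read 2105, 1600 and 2739 in PGF2alpha replicates 1 to 3, against 4001, 5663 and 4011 in vehicle replicates 4 to 6. The means were 2148 ± 571 for PGF2alpha and 4558 ± 957 for vehicle (SD, n = 3 each), which is -1.09 as a log2 fold change (SE 0.219, adjusted p = 0.0275). It was 1 of 6 tested genes of this list to be called, beside 6.13% of all tested genes (2.32% lower), and the list's median was -0.20. The call was lost without PGF2alpha replicate 1 (adjusted p = 0.0849) or 2 (adjusted p = 0.0949) and without vehicle replicate 4 (adjusted p = 0.0559), 5 (adjusted p = 0.0752) or 6 (adjusted p = 0.0707).

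The other genes of the list did not pass. INSIG2, which retains SCAP in the endoplasmic reticulum, stood at -0.65 on the log2 scale (adjusted p = 0.0765), and a further INSIG2 probe set read -0.58. SREBF1, the SREBP gene tied more to fatty acid synthesis, stood at 0.90 (adjusted p = 0.0501), with all treated arrays above all vehicle arrays. SREBF2, the SREBP gene of cholesterol synthesis, stood at 0.04 with a 95% interval of -0.32 to 0.40 (adjusted p = 0.913), and its sign turned without PGF2alpha replicate 3 (-0.05) or vehicle replicate 6 (-0.03). INSIG1, itself a target of SREBP2 in other systems, stood at 0.27 with a 95% interval of -0.36 to 0.90 (adjusted p = 0.635). The protease gene MBTPS2 stood at -0.45 (adjusted p = 0.157). Further probe sets stood at 0.65 for SREBF1, 0.36 and 0.12 for SREBF2, 0.44 for INSIG1 and -0.06 for MBTPS2.

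Within the START domain family, STARD4 stood beside STAR on the lower side. STAR, which delivers cholesterol to the inner mitochondrial membrane, read 33832, 36464 and 50313 in PGF2alpha replicates 1 to 3, against 58817, 71945 and 59423 in vehicle replicates 4 to 6. Its log2 fold change was -0.67 (SE 0.163, adjusted p = 0.0497), just inside the threshold. That call was lost without PGF2alpha replicate 1 (adjusted p = 0.159) or 2 (adjusted p = 0.169), without vehicle replicate 4 (adjusted p = 0.0983), 5 (adjusted p = 0.123) or 6 (adjusted p = 0.116), and with no low-value filter (adjusted p = 0.193).

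STAR was the 1 gene called among 9 tested START genes other than STARD4, near the 6.13% of all tested genes. The late endosomal cholesterol-binding STARD3 stood at 0.13 (95% interval -0.20 to 0.45) and STARD5, a sterol-binding member of the STARD4 subfamily, at 0.28 (95% interval -0.20 to 0.75). PCTP, a phosphatidylcholine carrier, stood at 0.33 (adjusted p = 0.272) and DLC1, a GTPase-activating protein, at -0.29 (adjusted p = 0.378). Their other probe sets stood at 0.02 for PCTP and -0.52 for DLC1. The median of the 9 genes was 0.09.

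**Figure D3:**
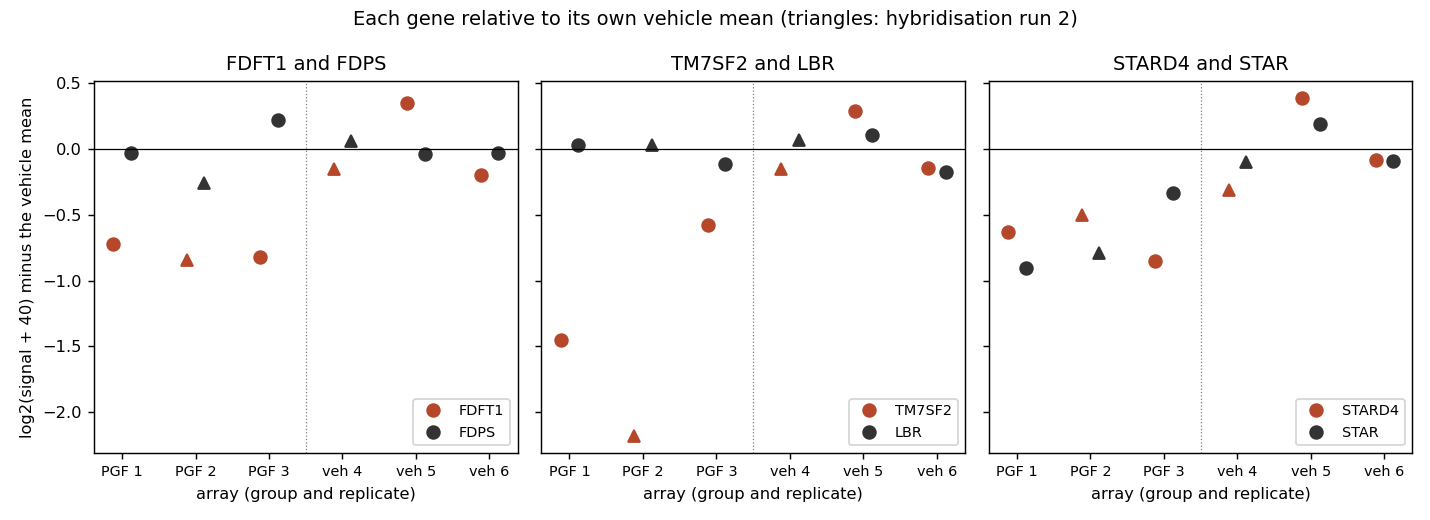
Log2(signal + 40) of each gene minus its own vehicle mean on the 6 arrays (PGF and veh with replicate number, triangles for hybridisation run 2), for FDFT1 with FDPS, TM7SF2 with LBR and STARD4 with STAR. FDFT1 lies between -0.84 and -0.72 on PGF2alpha arrays where FDPS lies between -0.26 and 0.22, and TM7SF2 lies between -2.18 and -0.58 where LBR lies between -0.11 and 0.03.

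The branches that use farnesyl diphosphate for other products did not follow FDFT1 as a group. Of 9 tested genes of protein prenylation, dolichol and ubiquinone synthesis 1 was called, near the 6.13% of all tested genes, and their median was -0.05. RABGGTB, the beta subunit of the transferase that prenylates Rab proteins, fell by 0.66 on the log2 scale (adjusted p = 0.0324), with means of 957 ± 55.0 for PGF2alpha and 1532 ± 91.5 for vehicle (SD, n = 3 each). The call was lost without PGF2alpha replicate 1 (adjusted p = 0.0838) or 2 (adjusted p = 0.114) and without vehicle replicate 4 (adjusted p = 0.0793), 5 (adjusted p = 0.0838) or 6 (adjusted p = 0.111). The farnesyltransferase subunit FNTA stood at 0.30 (adjusted p = 0.250) and the alpha subunit RABGGTA at -0.30 (adjusted p = 0.388).

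For cholesterol taken up from outside, 3 of 9 listed genes were named on the array. NPC2, the lysosomal cholesterol carrier, rose, with means of 14355 ± 2236 for PGF2alpha and 7822 ± 1478 for vehicle (SD, n = 3 each), which is 0.88 as a log2 fold change (adjusted p = 0.0276). Its call was lost without PGF2alpha replicate 1 (adjusted p = 0.1) or 2 (adjusted p = 0.103) and without vehicle replicate 5 (adjusted p = 0.0635) or 6 (adjusted p = 0.0762). NPC1, its membrane partner, stood at 0.29 (adjusted p = 0.484) and the lysosomal acid lipase LIPA at 0.18 (adjusted p = 0.493).

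Markers of other cells moved in the same samples, and in bulk tissue fewer cells of a type and less RNA per cell cannot be told apart. Of 17 tested macrophage and monocyte markers 7 rose and 0 fell. The summed signal of the 17 was 59401 to 99280 on PGF2alpha arrays and 25456 to 41527 on vehicle arrays. LYZ, which was not called (adjusted p = 0.104), held 24759 to 52126 and 12460 to 21139 of these sums. Among the called markers, other probe sets stood at -0.16 for CD68 and at 2.05 and 0.47 for MRC1 on the log2 scale. Of 10 listed neutrophil markers 4 were tested and all 4 rose. Their summed signals were 12129 to 30554 for PGF2alpha and 3324 to 6648 for vehicle, and LCN2 alone read 2954 to 6486 on vehicle arrays. S100A12, CSF3R, MPO and ELANE were named on the array but did not pass the filter. The vehicle means of S100A8 (97.9), S100A9 (73.1) and the macrophage marker MARCO (60.4) lay below the array medians, so the filter favoured a rise in them and these counts carry that limit. Of 10 tested markers of luteal steroid-making cells 2 fell, STAR and CYP17A1, and 0 rose. The median over the list was -0.85 on the log2 scale. HSD17B1, which enters that median, read below the array median on every PGF2alpha array and above it on every vehicle array. The filter therefore favoured a fall in HSD17B1. Of 11 endothelial markers 1 rose and of 8 fibroblast markers 2 rose, and none fell. At the same threshold 6.13% of all tested genes were called, 3.81% higher and 2.32% lower. No marker list was at 0 on any array, and the part of these cell types in the values of FDFT1, TM7SF2 and STARD4 was not tested.

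The luteal markers and TM7SF2 were highest in the same treated replicate. The summed signal of the luteal markers was 83226, 91338 and 149216 in PGF2alpha replicates 1 to 3, against 166289, 198962 and 180528 in vehicle replicates 4 to 6. PGF2alpha replicate 3, the treated array with the highest sum, was also the treated array with the highest TM7SF2, whereas it had the lowest STARD4 on the brighter probe set. FDFT1 on its brighter probe set did not set this replicate apart, whereas its dimmer probe set was highest in PGF2alpha replicate 3 among the treated arrays.

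The likeness of the 3 genes across arrays differed from pair to pair. Correlations over 6 arrays that form 2 groups mostly restate the group difference, so the correlation of deviations from the group means is given beside each, as a description without a test. Between FDFT1 and STARD4 on their brighter probe sets r was 0.94 and that of the deviations 0.81. With the dimmer STARD4 probe set the brighter FDFT1 probe set gave 0.63 and -0.44. The dimmer FDFT1 probe set gave 0.89 and 0.61 with the brighter STARD4 probe set, and 0.79 and 0.18 with the dimmer one. On the brightest probe sets the values between FDFT1 and TM7SF2 were 0.82 and 0.32. Those between TM7SF2 and STARD4 were 0.62 and -0.17.

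Set against the 39 tested genes of sterol synthesis, its control, uptake, isoprenoid branches and the START family, the nearest gene differed for each of the 3. On its brighter probe set STARD4 was most like EBP (r = 0.99, deviations 0.98) and CYP51A1 (r = 0.98, deviations 0.94). EBP read 998, 1140 and 930 in PGF2alpha replicates 1 to 3, against 1252, 1898 and 1352 in vehicle replicates 4 to 6, which is the order of arrays seen for STARD4. TM7SF2 was most like SCAP (r = 0.98, deviations 0.94) and NSDHL (r = 0.96, deviations 0.97), followed by STAR (r = 0.94, deviations 0.81). FDFT1 was most like CYP51A1 (r = 0.96, deviations 0.82) and RABGGTB (r = 0.96, deviations 0.78). On the log2 scale vehicle replicate 5 stood above the vehicle mean by 0.39 for STARD4, 0.35 for EBP and 0.39 for CYP51A1. It did so by 0.35 for FDFT1, 0.29 for TM7SF2 and 0.33 for SCAP. How far that array made the likeness was not tested.

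Over all 9977 other tested genes, EBP also ranked 1 in likeness to STARD4, followed by the unnamed locus LOC717246 (r = 0.9918) and the cystine transporter SLC7A11 (r = 0.9909). SLC7A11 read 305, 292 and 211 in PGF2alpha replicates 1 to 3, against 374, 713 and 454 in vehicle replicates 4 to 6. Nearest to FDFT1 were the membrane protein genes TMEM8B (r = 0.9971) and TMEM181 (r = 0.9952) and the mRNA export factor FYTTD1 (r = 0.9917). Nearest to TM7SF2 were PIDD1, a death domain protein (r = 0.9976), IQCA1 (r = 0.9948) and the lysophosphatidic acid phosphatase ACP6 (r = 0.9941). PIDD1 read 5598, 4330 and 8179 in PGF2alpha replicates 1 to 3, against 9544, 10746 and 9669 in vehicle replicates 4 to 6, with PGF2alpha replicate 3 again closest to vehicle. With 6 arrays many genes reach such values: r was at least 0.95 for 61 genes against FDFT1, 118 against TM7SF2 and 47 against STARD4.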

How the data were processed

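Total RNA from corpora lutea was hybridised to 6 Rhesus arrays. The authors deposited 1 linear intensity for each probe set, computed with MAS5 as the labels and the submitters' processing notes state. The exact software version is not given in the sources used here. Their trimmed means, leaving out 2% at each end, were 500.03 to 500.04 on all arrays, so no further scaling was applied. Gene names came from a platform annotation that can be old, and 27535 probe sets had no symbol and 361 had several. The 99 control probe sets were left out.

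Values were taken as log2(signal + 40), which understates changes of low genes; 40 is close to the 25th percentile of all values (39.6). Probe sets at or above their array's median on at least 3 arrays entered the test (26944), run in R 4.3.3 with limma 3.58.1 (lmFit, eBayes with variance trend, two-sided, Benjamini-Hochberg over all tested probe sets, threshold 0.05), which called 1351 (5.01%). The fit was tested on simulated data. The tested probe set of highest mean signal stood for a gene. Members and lists were chosen with earlier results of these data known. Named genes were all called genes of each sterol list, filled up to 3 by smallest p, genes fixed by name (among them STAR, SREBF2, INSIG1 and LBR; others are not reported here) and the 3 genes most like each member; others of the sterol lists are given by value and were chosen after their values were seen. No detection call was used, so no level was set against background, and the number of arrays limits the precision. Alternatives changed the scaling, pseudocount, filter, variance model, run, array weights, probe set and arrays.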

Additional observations from a re-analysis of the deposited data

How the results depend on the processing

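The log2 fold changes of FDFT1, TM7SF2 and STARD4 stayed negative under all 15 alternatives run for each. The genes were chosen on this contrast, and their groups did not overlap on their brightest probe sets. A negative sign was therefore given in advance within each run, with an array left out and with another pseudocount. The values of FDFT1 ran from -0.89 to -0.62, those of TM7SF2 from -2.03 to -0.79 and those of STARD4 from -0.89 to -0.19. TM7SF2 moved beyond the spread between replicates within run 2 (-2.03) and with the mean of all its probe sets, the dim one included (-0.79), and STARD4 did so within run 2 (-0.19). The 0 calls among other sterol synthesis genes became 1, CYP51A1 (adjusted p = 0.049), with the filter at the 70th percentile. Their median of -0.23 became -0.02 without probe sets ending in _x_at or _s_at, and ranged from -0.25 to -0.12 with an array left out. The 1351 called probe sets became 826 with no filter, 669 without the variance trend, and 223 to 1903 with an array left out (223 without PGF2alpha replicate 2 and 1903 without PGF2alpha replicate 3). Without the variance trend the calls of SCAP (adjusted p = 0.0601), RABGGTB (adjusted p = 0.0621), NPC2 (adjusted p = 0.069) and STAR (adjusted p = 0.12) were lost. With no filter that of NPC2 was lost too (adjusted p = 0.0567), and that of STAR was lost with one median (adjusted p = 0.059), a pseudocount of 10 (adjusted p = 0.0509) and the run as a block (adjusted p = 0.0572). SREBF1 was called under 7 of 16 alternatives, with adjusted p from 0.037 to 0.148. Genes near 0 changed sign, LBR with one median (0.03), array weights (0.04) and without PGF2alpha replicate 3 (0.03) or vehicle replicates 4 (0.02) and 5 (0.04), and SREBF2 without PGF2alpha replicate 3 (-0.05) or vehicle replicate 6 (-0.03); with an array left out LBR ran from -0.10 to 0.04 and SREBF2 from -0.05 to 0.10. The cause was not tested. No paired analysis was possible because the groups share no replicate number.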
